A study of Mus musculus with 7 samples.

Results

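The genes described here are the 36 members of the pathways that make nucleotides, one-carbon units and polyamines. They were found by matching the gene names of non-control probes on the arrays to a list of 36 symbols, and all 36 were present, on 61 of 55681 probes. They fall into 8 serine and one-carbon genes, 7 deoxynucleotide genes, 12 purine genes, 3 pyrimidine genes and 6 genes of polyamine or glutamine metabolism. All 36 were among the 14811 named genes tested.

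RNA was profiled on 1-colour Agilent arrays from 3 Lck-/- and 4 WT samples of mouse lymph node CD8 T cells, which the series calls biological replicates. Every sample was Rag-/- and OT-1het, that is, it carried the OT-1 transgenic receptor for the ovalbumin peptide SIINFEKL, and was collected 24 h after activation with 100 nM SIINFEKL. The Lck-/- samples also lacked the endogenous kinase Lck, and the knocked-in Lck they carried had been switched off by 7 days without doxycycline in the diet. The labels give no doxycycline feeding for the WT samples and no age, sex or number of animals per sample, so the effects of feeding, of the construct and of Lck loss cannot be told apart. The series asks how the 2 groups differ at this time.

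The labelled loss of Lck did not part the arrays. The signal of its only probe (mm9 chromosome 4, 129225614 to 129225673), relative to the WT mean on a log2 scale, was 0.90, -0.91 and -0.95 on the arrays labelled Lck-/- 1, 2 and 3, against 0.31, 0.54, 0.23 and -1.09 on those labelled WT 1 to 4. The array labelled Lck-/- 1 was thus the highest and the array labelled WT 4 the lowest of the 7, and whether this probe lies outside the altered stretch of the gene was not analysed here. Results are therefore given with and without these 2 arrays. The CD8 T cell markers Cd8a, Cd8b1, Cd3d, Cd3e, Cd3g, Thy1 and Cd2 all passed the detection filter, and the mean signal of the 6 without a missing value (all but Cd3e) was 0.17 to 0.48 above the WT mean on Lck-/- arrays, against -0.19 to 0.10 on WT arrays. NK cell markers, of which 9 of 10 passed, spanned 0.59 to 2.11 on Lck-/- arrays and -0.79 to 1.69 on WT arrays. Macrophage and monocyte markers spanned 0.11 to 0.78 on Lck-/- arrays and -0.35 to 0.70 on WT arrays, and dendritic cell markers 0.11 to 0.60 on Lck-/- arrays and -0.48 to 0.44 on WT arrays. Of 3 CD4 T cell markers 2 passed, Cd4 and Foxp3. Cd4 log2 signal was 1.69, 2.05, 5.47 and 1.90 on WT 1 to 4. It was 1.78 and 3.67 on Lck-/- 2 and 3, with no value on Lck-/- 1. The part of the high Cd4 signal on WT 3 and Lck-/- 3 was not tested. Of 6 B cell genes 3 passed, Cd79b (0.53), Cd22 (0.34) and Cd79a (0.48), with differences above 0 that did not pass the test, and Ms4a1 and Pax5 were among those that did not reach the filter. The mean of the 2 B cell genes measured on all arrays was 0.38 to 0.54 on Lck-/- arrays and -0.26 to 0.22 on WT arrays, without overlap, and its part in the results below was not tested.

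A dividing T cell has to copy its DNA, and for that it draws on every class of gene in this set. Serine is split by hydroxymethyltransferases into glycine and a one-carbon unit carried on folate. That unit goes into the purine ring and into thymidylate. Ribonucleotide reductase turns ribonucleotides into the deoxynucleotides used for DNA. Polyamines made from ornithine bind nucleic acids and are needed for growth, and activated T cells are known to switch on much of this chemistry in the hours before they divide.

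Signal is given as log2 of the processed spot signal minus the 75th percentile of the same array, so 0 is that percentile, and differences are Lck-/- minus WT. Of the 36 genes, none passed limma's test at an adjusted p under 0.05 over all genes, against 0 of 14811 genes (0%) overall. At an unadjusted p under 0.05, 1 gene was lower (Rrm2) and 1 was higher (Impdh1), where 2.19% of all genes were lower and 4.95% higher, 7.14% together. In 4 genes (Rrm2, Shmt1, Pfas and Azin1) every Lck-/- array lay below every WT array, against 2.09% of all genes, and in 1 (Impdh1) every Lck-/- array lay above, against 5.10% (7.19% together). The difference was below 0 in 21 genes and above 0 in 15, with a median of -0.06 and a range of -0.68 to 0.39. Over all genes tested the median was 0.04, with 42.4% of differences below 0 and 57.6% above. In bulk RNA, fewer cells of a type and less RNA per cell cannot be told apart.

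The pair of arrays with an Lck signal at odds with the label moved these counts. With the arrays labelled Lck-/- 1 and WT 4 left out, 27 of the 36 differences were below 0, against 41.5% of all genes. The median of the 36 was -0.14, against 0.06 over all genes. The Lck-/- arrays then lay below all WT arrays in 15 genes, against 10.2% of all genes, and above in 2, against 17.3%. None passed the adjusted threshold then either, and the smallest adjusted p by limma among the 36 was 0.17, for Rrm2, while 60 of all genes passed. Without Lck-/- 1 alone, 13 genes were lower without overlap, against 7.40% of all genes, and 1 was higher, against 9.88%.

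**Figure D1:**
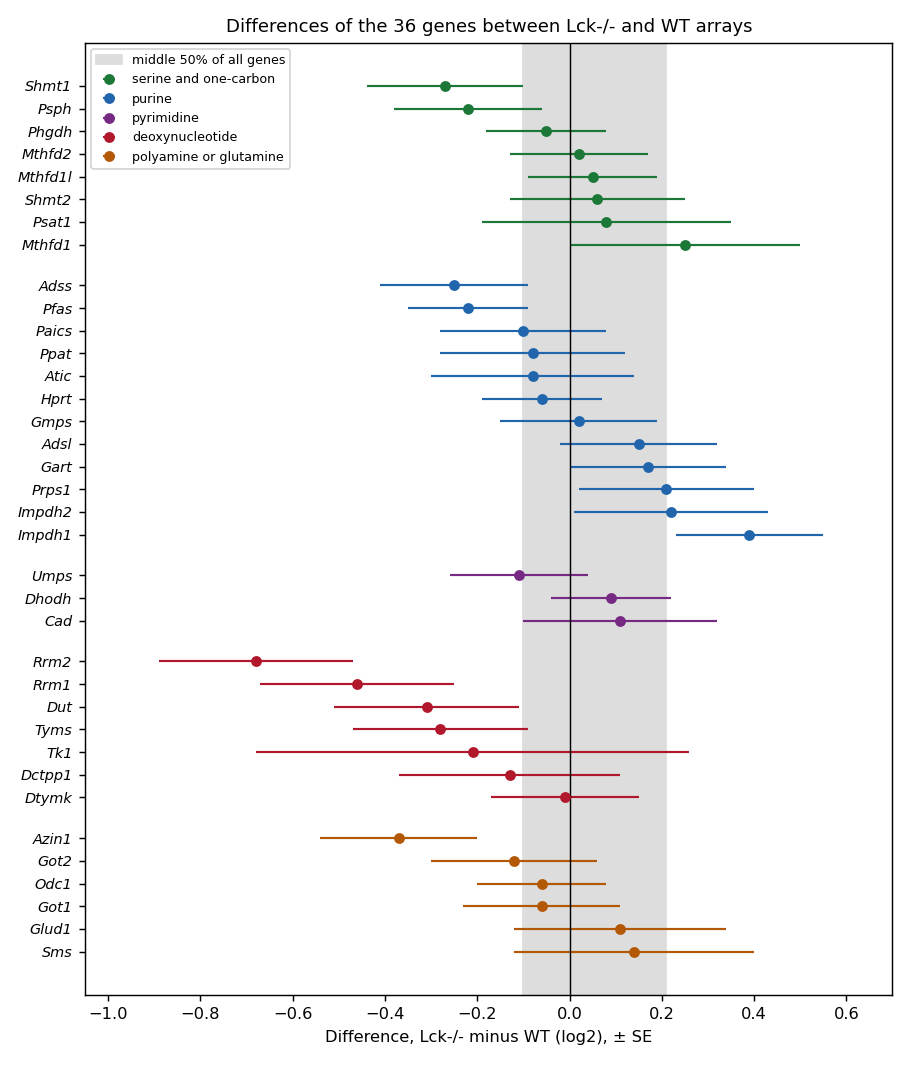
Difference in log2 signal, Lck-/- minus WT, for each of the 36 genes, with the limma standard error (bars), by class, on the horizontal axis; the grey band holds the middle 50% of all genes, from -0.10 to 0.21. The 7 deoxynucleotide genes all lie below 0, from -0.68 to -0.01, while the other classes lie on both sides.

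The 7 deoxynucleotide genes were all below 0 in Lck-/- samples, with a median difference of -0.28, and none passed the adjusted threshold. The count below 0 was 4 of 7 without Lck-/- 2 or without Lck-/- 3, 5 without WT 3 and 6 without WT 1, and the median ran from -0.46, without Lck-/- 1, to -0.12, without Lck-/- 2. Without both Lck-/- 1 and WT 4 all 7 were below 0, with a median of -0.49. The lowest were both subunits of ribonucleotide reductase, Rrm1 (mm9 chromosome 7, 109617223 to 109617283) and Rrm2 (mm9 chromosome 12, 25398824 to 25398883). Rrm1 is the large catalytic subunit, and Rrm2 is the small subunit that holds the tyrosyl radical and is made mainly in S phase. Their promoters are shown because these 2 genes had the smallest p-values of the class. The windows run from 250 bases before to 50 bases after the start, from RefSeq on GRCm38.p6, 5′ to 3′, with CCAAT boxes in capitals. Rrm1 is at chr7:102441445-102441744 (plus strand) and Rrm2 at chr12:24708004-24708303 (plus strand).
Rrm1: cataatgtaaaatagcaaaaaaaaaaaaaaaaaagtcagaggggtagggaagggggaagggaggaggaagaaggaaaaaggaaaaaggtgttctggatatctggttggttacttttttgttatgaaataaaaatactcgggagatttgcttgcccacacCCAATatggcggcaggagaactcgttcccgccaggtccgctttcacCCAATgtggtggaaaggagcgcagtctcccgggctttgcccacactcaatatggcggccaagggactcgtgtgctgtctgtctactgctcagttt
Rrm2: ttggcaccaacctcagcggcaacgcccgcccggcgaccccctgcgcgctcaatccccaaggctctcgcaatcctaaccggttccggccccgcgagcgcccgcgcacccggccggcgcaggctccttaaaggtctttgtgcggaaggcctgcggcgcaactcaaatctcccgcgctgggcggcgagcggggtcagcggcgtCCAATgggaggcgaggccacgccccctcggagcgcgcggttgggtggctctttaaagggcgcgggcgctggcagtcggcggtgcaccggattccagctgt

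Rrm1 has 2 CCAAT boxes, which begin 91 and 45 bases before the start, and Rrm2 has 1, which begins 50 bases before. Of all promoter windows of this length in the table, 37.4% hold CCAAT on either strand. None of the E2F words searched (TTTCCCGC, TTTCGCGC, TTTGCCGC and TTTGGCGC, on both strands) was found in either window.

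Rrm2 signal was 6.03, 5.62 and 5.26 on the Lck-/- arrays and 6.60, 6.26, 6.25 and 6.14 on the WT arrays. All 3 Lck-/- arrays were below all WT arrays, with Lck-/- 1 the nearest to them. The means were 5.64 ± 0.39 (SD, n = 3) in Lck-/- and 6.31 ± 0.20 (SD, n = 4) in WT, a difference of -0.68 with a standard error of 0.21 and a 95% interval of -1.16 to -0.19. By limma the unadjusted p was 0.0125 and the adjusted p 0.613, which does not pass. Without the array labelled Lck-/- 3 the difference was -0.49, and with NK marker signal added to the model it was -0.57, with unadjusted limma p-values of 0.0526 and 0.0599. Without Lck-/- 1 it was -0.87 and without both Lck-/- 1 and WT 4 it was -0.93, with unadjusted limma p-values of 0.0032 and 0.00477.

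Rrm1 signal was 5.07, 4.73 and 4.78 on the Lck-/- arrays and 5.72, 5.26, 5.42 and 4.88 on the WT arrays. The array labelled WT 4 fell among the Lck-/- values, so the groups overlapped. The difference was -0.46 with a standard error of 0.21, and limma's adjusted p was 0.712. Without Lck-/- 1 and WT 4 the groups did not overlap and the difference was -0.71, with limma p-values of 0.0135 unadjusted and 0.252 adjusted. With NK marker signal added to the model it was -0.19, with an unadjusted limma p of 0.349. Across the 7 arrays, which share 1 slide, Rrm1 and Rrm2 correlated at 0.86, given as a description.

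The remaining deoxynucleotide genes overlapped between groups. Dut, which hydrolyses dUTP and so keeps uracil out of DNA, was at -0.31 with a standard error of 0.20, and its second probe gave -0.04. Tyms, which methylates dUMP to thymidylate with a folate cofactor, was at -0.28 with a standard error of 0.19.

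Tk1, the S-phase thymidine kinase that salvages thymidine, had signal of 6.06, 4.44 and 4.31 on Lck-/- arrays and 5.42, 4.56, 5.80 and 4.82 on WT arrays. The array labelled Lck-/- 1 was the highest and the other 2 Lck-/- arrays the lowest of the 7, so the difference of -0.21 had the widest standard error of the 36, 0.47. Without Lck-/- 1 and WT 4 it was -0.88, with an unadjusted limma p of 0.0518. Dctpp1, a pyrophosphatase that clears modified dCTP, was at -0.13, and Dtymk, the thymidylate kinase that follows Tyms and Tk1, was at -0.01. A second Dtymk probe gave -0.27.

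**Figure D2:**
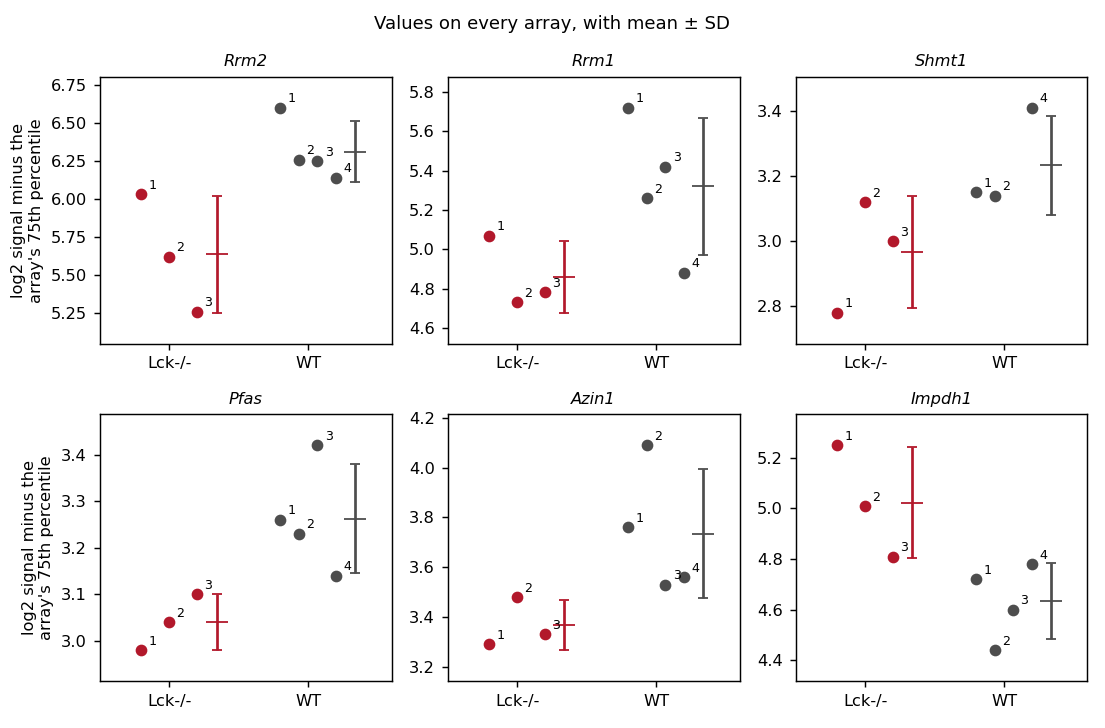
Log2 signal minus the array's 75th percentile (vertical axis) on each Lck-/- and each WT array for 6 genes; points are arrays, numbered as labelled, and bars are the group mean ± SD. All Lck-/- points lie below all WT points for Rrm2, Shmt1, Pfas and Azin1 and above them for Impdh1, while WT 4 lies among the Lck-/- points for Rrm1.

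The deoxynucleotide class varied between arrays within each group. Relative to the WT mean, its mean signal was 0.12, -0.49 and -0.53 on Lck-/- 1, 2 and 3, against 0.23, -0.17, 0.14 and -0.20 on WT 1 to 4. The 22 mitosis genes tested all had negative differences, and the mean signal of the 21 measured on all arrays was -0.54, -1.43 and -1.48 on the Lck-/- arrays, against 0.85, -0.60, 0.44 and -0.69 on the WT arrays. The low arrays were Lck-/- 2 and 3 in both lists, and WT 2 and WT 4 were below WT 1 and WT 3 in both, and the part of cell division in the class was not tested. The 20 DNA replication genes had a median of -0.15, with 16 below 0. Among the 41 mitosis and DNA replication genes measured on all arrays, Rfc4, a subunit of the clamp loader, and the mitotic genes Bub1 and Kif11 had the patterns most like the class over the 7 arrays, with Pearson r of 0.96, 0.95 and 0.95. Such likeness was not particular to this class. The serine and one-carbon class reached 0.96 and 0.95 with the replication genes Mcm3 and Mcm5. The highest r was 0.75, 0.83 and 0.84 for the purine, pyrimidine and polyamine or glutamine classes. With NK marker signal added to the model, 4 of the 7 deoxynucleotide genes were below 0, with a median of -0.09.

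The 10 further deoxynucleotide genes, chiefly of salvage and breakdown, were not one-sided. There were 5 below 0 and 5 above 0, with a median of -0.02, and none passed the test. Samhd1, which degrades deoxynucleotides, was at -0.56 with a standard error of 0.30. Rrm2b, the reductase subunit used outside S phase, was at 0.29 with a standard error of 0.18, and Tk2, the mitochondrial thymidine kinase, was at 0.38 with a standard error of 0.18.

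**Figure D3:**
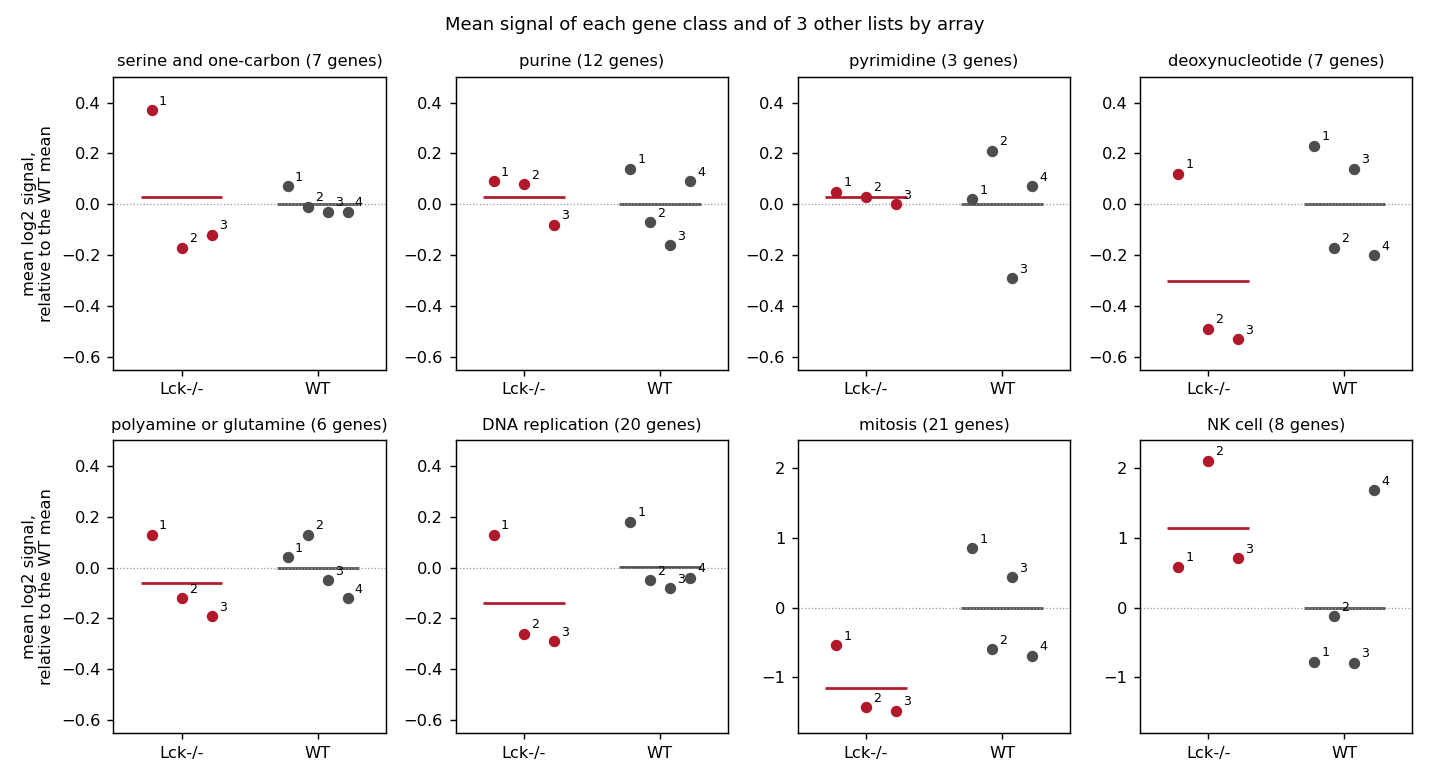
Mean log2 signal of each gene class and of 3 other lists on each array, relative to the WT mean (vertical axis), with arrays as points numbered as labelled, lines at group means, and a wider axis for mitosis and NK cell genes. Lck-/- 1 stands above the other 2 Lck-/- arrays for the serine and one-carbon class (0.37 against -0.17 and -0.12) and for the deoxynucleotide class (0.12 against -0.49 and -0.53).

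The 8 serine and one-carbon genes had differences from -0.27 to 0.25, with 3 below 0 and 5 above 0 and a median of 0.03. Phgdh, Psat1 and Psph are the successive enzymes that make serine from a glycolytic intermediate. Their differences were -0.05, 0.08 and -0.22, with standard errors of 0.13, 0.27 and 0.16. Psph, the phosphatase of the last step, had signal of 5.19, 4.74 and 5.15 on Lck-/- arrays and 5.39, 5.24, 5.19 and 5.15 on WT arrays. Only Lck-/- 2 was clearly below the WT range.

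Shmt1 and Shmt2 are the cytosolic and mitochondrial hydroxymethyltransferases. Shmt1 (mm9 chromosome 11, 60603099 to 60603158) had signal of 2.78, 3.12 and 3.00 on the Lck-/- arrays and 3.15, 3.14 and 3.41 on WT 1, 2 and 4, since its spot on WT 3 was flagged and left out. The groups did not overlap, but the highest Lck-/- and lowest WT values were only 3.12 and 3.14. The difference was -0.27 with a standard error of 0.17 and a limma adjusted p of 0.805. The difference was -0.09 without Lck-/- 1 and WT 4. A second Shmt1 probe gave 0.02, so the difference depends on the probe. Shmt2 was at 0.06 with a standard error of 0.19.

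The folate enzymes that carry the one-carbon unit onward were near 0 or above it. Mthfd1, the cytosolic folate enzyme with several activities, was at 0.25 with a standard error of 0.25. The mitochondrial Mthfd2 and Mthfd1l were at 0.02 and 0.05, and the second Mthfd1l probe gave 0.14. Mthfd2 signal was 4.96, 4.64 and 4.53 on Lck-/- arrays and 4.74, 4.70, 4.52 and 4.77 on WT arrays, so Lck-/- 1 was highest and the other 2 lay within the WT range.

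Lck-/- 1 stood apart in this class. Its mean signal, over the 7 genes measured on all arrays, was 0.37 on Lck-/- 1, -0.17 and -0.12 on Lck-/- 2 and 3, and between -0.03 and 0.07 on the WT arrays. Without Lck-/- 1 the sign turned in 4 of the 8 genes, and 7 of the 8 were below 0, while without both Lck-/- 1 and WT 4 all 8 were. The 20 tested genes of the wider folate, methionine and glycine list were 5 below and 15 above 0, with a median of 0.07. In that list Ahcy, which clears S-adenosylhomocysteine, was at -0.38 with a standard error of 0.17, Ggh, which trims polyglutamate from folate, was at 0.25 with a standard error of 0.17, and Mat2a, which makes S-adenosylmethionine, was at 0.22 with a standard error of 0.16.

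The 12 purine genes divided evenly, 6 below 0 and 6 above 0, with a median of -0.02. They run from Prps1, which makes the activated ribose, through the ring-building enzymes Ppat, Gart, Pfas, Paics, Adsl and Atic to the branch enzymes Impdh1, Impdh2 and Gmps for guanine and Adss for adenine nucleotides, with Hprt as the salvage enzyme. The 6 ring-building enzymes were at -0.08, 0.17, -0.22, -0.10, 0.15 and -0.08 in that order. Prps1 was at 0.21, Gmps at 0.02, Adss at -0.25 and Hprt at -0.06.

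Impdh1 and Impdh2 catalyse the committed step from IMP to guanine nucleotides. Impdh1 (mm9 chromosome 6, 29150442 to 29150501) had signal of 5.25, 5.01 and 4.81 on the Lck-/- arrays and 4.72, 4.44, 4.60 and 4.78 on the WT arrays. All Lck-/- arrays were above all WT arrays, with 4.81 and 4.78 the nearest values. The difference was 0.39 with a standard error of 0.16 and a 95% interval of 0.02 to 0.76, and limma's unadjusted p was 0.0423 and adjusted p 0.694. It was 0.32 without Lck-/- 1 and WT 4, with an unadjusted limma p of 0.142. Impdh2 was at 0.22 with a standard error of 0.21, and its 2 probes gave 0.22 and 0.23. These probes overlap (mm9 chromosome 9, 108467836 to 108467895 and 108467842 to 108467901), so they are not separate measures. Impdh2 signal was 8.03, 7.24 and 7.27 on Lck-/- arrays and 7.30, 7.27, 7.42 and 7.19 on WT arrays, so Lck-/- 1 alone stood above.

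Pfas, the fourth ring-building step, was lower in each Lck-/- array (mm9 chromosome 11, 68799330 to 68799389). Its signal was 2.98, 3.04 and 3.10 on the Lck-/- arrays and 3.26, 3.23, 3.42 and 3.14 on the WT arrays. The difference was -0.22 with a standard error of 0.13 and a limma adjusted p of 0.787, which does not pass, and it was -0.23 without Lck-/- 1 and WT 4. Adss was the lowest of the class at -0.25 with a standard error of 0.16, although WT 3 fell among the Lck-/- arrays.

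Ppat and Paics have starts 276 bases apart on opposite strands of chromosome 5, and their promoter windows are shown for that reason. Each gene is read across the annotated start of the other, so the 2 windows share 0 bases and lie 177 bases apart. The windows are again RefSeq's, on GRCm38.p6. Ppat is at chr5:76951529-76951828 (minus strand) and Paics at chr5:76951052-76951351 (plus strand). Capitals mark GCGGGAAA, the reverse complement of the E2F word TTTCCCGC, in Ppat, and the E-box CACGTG and a CCAAT box in Paics.
Ppat: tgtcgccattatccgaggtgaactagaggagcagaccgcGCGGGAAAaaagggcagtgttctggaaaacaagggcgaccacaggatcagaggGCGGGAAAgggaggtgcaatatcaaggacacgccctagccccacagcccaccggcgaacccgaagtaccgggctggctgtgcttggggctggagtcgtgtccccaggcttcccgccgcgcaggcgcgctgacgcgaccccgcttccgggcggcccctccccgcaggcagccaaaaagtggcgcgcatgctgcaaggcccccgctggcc
Paics: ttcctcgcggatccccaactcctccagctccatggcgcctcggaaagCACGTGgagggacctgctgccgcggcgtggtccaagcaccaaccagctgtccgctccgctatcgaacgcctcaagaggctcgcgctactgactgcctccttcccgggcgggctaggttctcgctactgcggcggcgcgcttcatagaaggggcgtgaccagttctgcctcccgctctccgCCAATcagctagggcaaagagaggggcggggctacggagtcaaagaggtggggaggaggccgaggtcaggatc

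The E2F matches begin 211 and 158 bases before the start of Ppat, and the E-box 203 and the CCAAT box 23 bases before that of Paics. Ppat signal was 2.96, 3.57 and 2.98 on Lck-/- arrays and 3.52, 3.18, 3.06 and 3.25 on WT arrays. Paics signal was 5.37, 5.51 and 5.14 on Lck-/- arrays and 5.76, 5.40, 5.15 and 5.44 on WT arrays. For both genes WT 1 and Lck-/- 2 were the top 2 arrays and the groups overlapped, and over the 7 arrays they correlated at 0.82, as a description of arrays that share 1 slide.

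The 16 tested genes of the wider purine list, of salvage, kinases and breakdown, were 7 below and 9 above 0, with a median of 0.04. Xdh, which makes urate, was at -0.81 with a standard error of 0.34 and a limma adjusted p of 0.694. Its signal was -1.84, -1.65 and -2.26 on the Lck-/- arrays and -0.30, -0.97, -1.38 and -1.77 on the WT arrays, so it was low and WT 4 overlapped the Lck-/- arrays. Itpa, which clears inosine triphosphate, was at -0.31 with a standard error of 0.18, and Ada, adenosine deaminase, at -0.21 with a standard error of 0.15.

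The 3 pyrimidine genes, Cad, Dhodh and Umps, encode the whole de novo route to UMP, and their differences lay between -0.11 and 0.11. Umps signal was 6.52, 6.51 and 6.32 on Lck-/- arrays and 6.68, 6.67, 6.31 and 6.62 on WT arrays. WT 3 was at the level of Lck-/- 3, and the remaining WT arrays were above all Lck-/- arrays. Dhodh signal was 3.75, 3.90 and 3.76 on Lck-/- arrays and 3.71, 3.80, 3.54 and 3.80 on WT arrays, with overlap. The 95% intervals were -0.46 to 0.23 for Umps, -0.22 to 0.40 for Dhodh and -0.38 to 0.60 for Cad. Of 8 tested genes of the wider list, 2 were below and 6 above 0, with a median of 0.11. Uckl1, a uridine-cytidine kinase-like gene, was at 0.44 with a standard error of 0.17 and a limma adjusted p of 0.679. Upp1, uridine phosphorylase, had the largest difference of the list, 1.10 with a standard error of 0.68 and a limma adjusted p of 0.804. Its signal was -2.06, -0.13 and -0.26 on the Lck-/- arrays and -2.95, -2.02, -2.35 and -0.34 on the WT arrays, so WT 4 lay with Lck-/- 2 and 3. Ctps, which makes CTP, was at -0.15 with a standard error of 0.14.

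The 6 genes of polyamine or glutamine metabolism had 4 differences below 0 and 2 above, with a median of -0.06. Azin1 (mm9 chromosome 15, 38420056 to 38420115) encodes an antizyme inhibitor that protects ornithine decarboxylase from breakdown. Its signal was 3.29, 3.48 and 3.33 on the Lck-/- arrays and 3.76, 4.09, 3.53 and 3.56 on the WT arrays. Each Lck-/- array was below each WT array. The difference was -0.37 with a standard error of 0.17 and limma p-values of 0.0645 unadjusted and 0.718 adjusted, and it was -0.39 without Lck-/- 1 and WT 4. Its 3 probes gave -0.37, -0.42 and -0.11, all below 0.

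Odc1, ornithine decarboxylase itself, overlapped between groups. Its signal was 6.56, 6.74 and 6.68 on Lck-/- arrays and 6.67, 6.90, 6.61 and 6.69 on WT arrays, and its 95% interval was -0.37 to 0.26. Its 4 probes ran from -0.13 to 0.13. Sms, spermine synthase, was at 0.14 by the probe used and -0.08 and -0.27 by its other 2.

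The glutamate enzymes feed the citric acid cycle and aspartate. Got2, the mitochondrial aspartate aminotransferase, had signal of 5.90, 5.50 and 5.26 on Lck-/- arrays and 5.80, 5.75, 5.63 and 5.51 on WT arrays, with a difference of -0.12. Got1, its cytosolic counterpart, was at -0.06, and Glud1, glutamate dehydrogenase, at 0.11. The 16 tested genes of the wider list were 12 below and 4 above 0, with a median of -0.10. Smox, spermine oxidase, had signal of 1.94, 1.38 and 1.58 on the Lck-/- arrays and 0.87, 1.11, 1.19 and 1.03 on the WT arrays. It was higher without overlap by 0.59, with a standard error of 0.17 and limma p-values of 0.00915 unadjusted and 0.604 adjusted. Sat1, the acetyltransferase that starts polyamine breakdown, was at -0.37 with a standard error of 0.24, and Oat, which makes or uses ornithine, at -0.26 with a standard error of 0.18.

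Across the members the array labelled Lck-/- 1 was the highest in some genes and the lowest in others. It was the highest of the 7 arrays in 13 of the 36 genes, against 20.0% of all genes measured on all arrays. These were Phgdh, Psat1, Shmt2, Mthfd1, Mthfd1l, Mthfd2, Tk1, Dctpp1, Impdh1, Impdh2, Glud1, Got2 and Sms. WT 1 was highest in 11, against 21.7% of all genes, and lowest in none, against 10.5%. Lck-/- 3 was lowest in 10, against 15.7%. WT 3 was lowest in 9, against 35.5%. Lck-/- 1 itself was lowest in 5 of the 35 members measured on all arrays, against 10.1%. Relative to the WT mean, the mean signal of those 35 was 0.16 on Lck-/- 1 and 0.11 on WT 1. It was -0.12 and -0.19 on Lck-/- 2 and 3. In 19 of the 36 genes the 3 Lck-/- arrays spanned a wider range than the WT arrays. The share over all genes was not computed, so this count cannot be placed. Lck-/- 1 also had the most spots well above background, 61.06% against 46.57% to 56.18% on the others, and its part in these values was not tested.

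**Figure D4:**
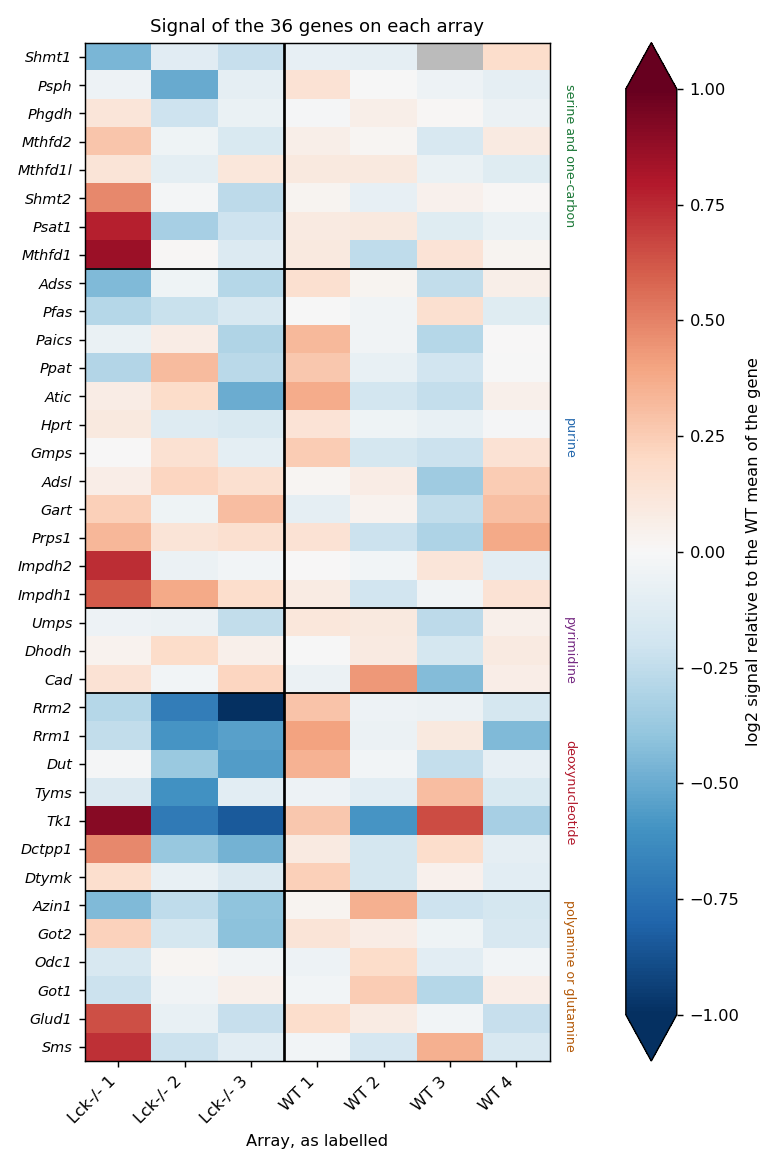
Log2 signal of each of the 36 genes (rows, by class) on each array (columns, Lck-/- left and WT right), coloured by its difference from the gene's WT mean, with grey for a spot left out. Lck-/- 1 is the highest array in 13 genes, including Psat1 and Mthfd1, and Lck-/- 2 and 3 are low for Tk1, Rrm1 and Rrm2.

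Different probes of a gene did not always show this. Of the 8 other passing probes of those 13 genes, 3 were also highest on Lck-/- 1. Psat1 stood 1.05 above the mean of Lck-/- 2 and 3 by the probe used and 0.08 by the other, and Glud1 0.80 against -0.08. Those 3 belonged to Phgdh, Mthfd1l and Impdh2, and the overlapping Impdh2 probes stood 0.77 and 0.81 above that mean. The Tk1 probes stood 1.69 and 0.83 above it, but the second was higher on WT 1 and WT 3 than on Lck-/- 1. Among the 19 members with more than 1 passing probe, the difference between the groups had 1 sign in 12 and both signs in 7. The 7 were Gart, Glud1, Odc1, Phgdh, Psat1, Shmt1 and Sms.

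**Figure D5:**
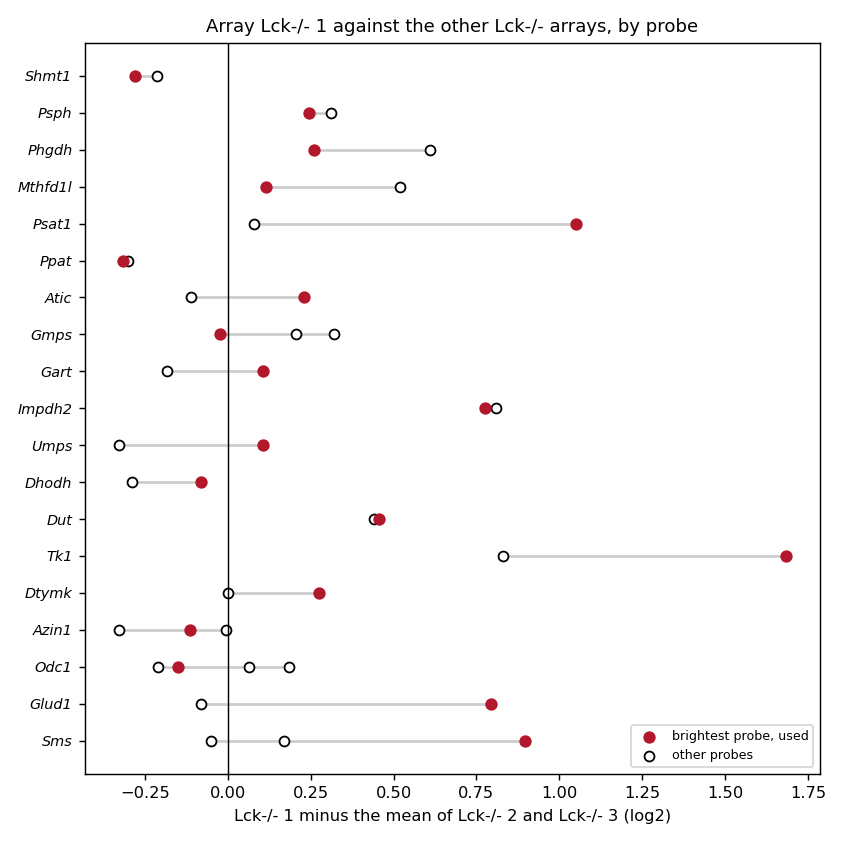
Signal on Lck-/- 1 minus the mean of Lck-/- 2 and Lck-/- 3 (horizontal axis, log2) for each passing probe of the members measured by more than 1 probe; filled points are the probes used. The 2 Impdh2 probes, which overlap on the genome, lie together at 0.77 and 0.81. The Psat1 probes, which do not overlap, lie apart at 1.05 and 0.08.

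Of 10 tested regulators, factors known to act on these pathways, 5 were below and 5 above 0. Myc, a known activator of nucleotide and polyamine genes, had signal of 5.11, 5.55 and 5.52 on Lck-/- arrays and 5.16, 5.10, 4.92 and 5.52 on WT arrays, and its difference of 0.22 had a standard error of 0.19. Atf4, which acts on serine and one-carbon genes under amino acid stress, was at 0.10 with a standard error of 0.19. Ddit3, a stress-induced partner in that response, was higher without overlap by 0.69 with a standard error of 0.19, and limma's adjusted p was 0.604. E2f1 was at -0.14 and E2f3 at -0.31, with standard errors of 0.16 and 0.19, and Nrf1 was at -0.29 with a standard error of 0.21.

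Promoter windows were found for 33 of the 36 members, 36 windows in all. The Myc-type E-box CACGTG was in 6 of them (16.7%), against 7.15% of the 32851 windows in the table, namely those of Tyms, Dtymk, Paics, Atic, Impdh2 and Sms. CCAAT was in 17 (47.2%), against 37.4%, and an E2F word in 1 (2.78%), against 2.26%. The ATF4 word TGATGNAAT was in none, against 0.965%. Both strands were searched, and none of the matches marked above overlap. These counts describe letters in these windows.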

How the data were processed

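Gene expression was measured on 7 1-colour arrays, 3 Lck-/- and 4 WT, all on 1 slide with 1 scan. Per the file headers, the deposited scanner files give spot intensity from Agilent Feature Extraction 10.7.3.1, with a fitted spatial background subtracted, detrending on, dim spots given surrogates, and probes placed on mm9. Arrays still differed in scale, with 75th percentiles of 353.6 to 615.4. The authors' deposited table of log2 values, whose array medians were 6.63 to 6.67, with no scaling method named in the sources used here, served only as an alternative.

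Values are log2 of the processed signal less the 75th percentile of the array over 59305 non-control spots. Outlier spots were dropped. Each gene is given by its brightest probe well above background on at least 3 of 7 arrays. This kept 29202 probes and 14811 named genes, after 22497 probes without a usable name were left out, and 60 of 61 member probes passed. Names came from the GRCm38.p6 gene table by accession (27181 probes), symbol (3561) or synonym (564), while 1817 kept their file name. Where probes lie within transcripts was not analysed here.

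Lck-/- was compared with WT in limma 3.58.1 (R 4.3.3; two-sided, Benjamini-Hochberg adjustment over all 14811 genes, threshold 0.05). The method was tested on simulated data, where it called 33 of 100 genes changed by 1 log2 unit and 94 of 100 changed by 3. The members, gene lists and naming rule were chosen with earlier results of these data known; per class, members with an unadjusted p under 0.05 or groups that did not overlap, and at least the 2 smallest p-values, were given in full. Up to 3 further genes were named from each wider list, by p, and the regulators Myc, Atf4 and E2f1 after their values were seen. Alternatives changed the scaling, background correction, probe filter, probe choice, block, weights or variance, used the deposited table, or left out each array. After seeing the data, 2 were added: dropping Lck-/- 1 and WT 4, whose Lck signal was at odds with their labels, and a covariate for NK marker signal. The number of arrays limits the precision.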

Additional observations from a re-analysis of the deposited data

Results flagged for a closer look

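The 4 WT values of each gene and class mean were checked for a single array far from the rest. Of 41 such groups 1 stood out, where chance alone flags about 1 in 20. The 3 Lck-/- arrays were too few for this check. Umps, the last enzyme of pyrimidine synthesis, had a signal of 6.31 on the array labelled WT 3, against 6.62, 6.67 and 6.68 on the other WT arrays. The gap took 0.843 of the range of the 4 values. WT 3 was the lowest array in 35.5% of all genes measured on all arrays. It also had 1403 spots flagged as non-uniform, against 1 to 422 on the others. The part of either in the Umps value was not tested.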

How the results depend on the processing

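In 21 alternative settings no member passed the adjusted threshold, and of 754 single differences 676 kept their sign. The sign held in every setting run for 12 members, Rrm2 (-0.93 to -0.49), Rrm1 (-0.71 to -0.19) and Impdh1 (0.18 to 0.49) among them, and turned at least once for 24. The cause was not tested. Median centring moved the median of all genes to -0.16 and that of the members to -0.26, which relative to all genes left it at -0.10, as in the values reported. It gave medians of -0.17 (serine and one-carbon), -0.23 (purine) and -0.26 (polyamine or glutamine). At an unadjusted limma p under 0.05 it gave 4 members lower, against 4.94% of all genes, and 0 higher, against 208 of 14811. It gave 0 higher without overlap, against 1.10% of all genes. It turned Psat1 (-0.12), Shmt2 (-0.14), Mthfd1l (-0.16), Mthfd2 (-0.18), Gart (-0.04), Adsl (-0.06), Gmps (-0.19), Cad (-0.09), Dhodh (-0.11), Glud1 (-0.09) and Sms (-0.07). The members lower at that p numbered 2 under quantile normalization, 3 after normexp and 4 in the deposited table. The shares of all genes were 3.21%, 3.29% and 4.21%. The members lower numbered 2 with probes well above background on all arrays, 3 with array weights and 3 with a robust variance trend. The shares of all genes were then 2.98%, 4.45% and 2.49%. The members higher at that p were 0 with no filter on dim probes, against 827 of 24032 genes. With array weights they were also 0, against 843 of 14811 genes. With the deposited values, 2 members were higher without overlap, against 4.00% of all genes. The serine and one-carbon median was -0.04, -0.06 and -0.08 with quantile normalization, normexp and array weights. Quantile normalization turned Psat1 (-0.04), Shmt2 (-0.05), Mthfd1l (-0.01) and Mthfd2 (0.00), normexp turned Psat1 (-0.06) and Shmt2 (-0.06), and array weights turned Psat1 (-0.08), Shmt2 (-0.07), Mthfd2 (-0.09), Gmps (-0.07) and Glud1 (-0.02). The deposited table turned Mthfd2 (-0.02), the filter on all arrays Shmt1 (0.02), and the mean of a gene's probes Psat1 (-0.05) and Sms (-0.07).

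Deviations from the group means correlated at 0.10, 0.06 and -0.03 between arrays that share a title number. Between arrays that do not share one they ran from -0.42 to 0.40. Other differences between arrays can move these values, so they cannot tell whether samples were paired. With the title number as a replicate block, 2 members were lower at that p, against 3.96% of all genes. The members higher were 0, against 985 of 14151 genes. With the file label number as a replicate block, 0 were higher at that p, against 599 of 14151 genes. Gmps (-0.04), Got1 (0.02) and Odc1 (0.01) turned.

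Leaving out Lck-/- 1 and WT 4 gave 15 members lower and 2 higher without overlap, against 10.2% and 17.3% of all genes. At that p it gave 2 lower, against 4.72%, and 0 higher, against 910 of 14811 genes. It gave medians of -0.14 (all members), -0.11 (serine and one-carbon) and -0.22 (polyamine or glutamine). It turned Psat1 (-0.29), Shmt2 (-0.14), Mthfd1 (-0.05), Mthfd1l (-0.03), Mthfd2 (-0.07), Ppat (0.02), Impdh2 (-0.08), Glud1 (-0.23), Got1 (0.03) and Sms (-0.22). With NK marker signal in the model, 0 were lower at that p, against 1.17% of all genes, and 0 higher, against 452 of 14811. Phgdh (0.02), Tk1 (0.21), Dctpp1 (0.03), Dtymk (0.08), Adsl (-0.01) and Gmps (-0.07) turned.

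Leaving out 1 array at a time gave 4 to 13 members lower and 1 to 2 higher without overlap. The shares of all genes were 2.61% to 7.40% and 6.33% to 10.2%. At that p, 0 to 2 members were lower, against 0.716% to 3.84%, and 0 to 1 higher, against 549 to 960 of 14811 genes. The medians were -0.14 to 0.04 (all members) and -0.14 to 0.08 (serine and one-carbon). Differences that turned ran from -0.27 to 0.29 for Psat1, -0.14 to 0.23 for Shmt2, -0.06 to 0.43 for Mthfd1, -0.10 to 0.11 for Mthfd2, -0.13 to 0.03 for Phgdh, -0.78 to 0.10 for Tk1, -0.43 to 0.04 for Dctpp1 and -0.11 to 0.06 for Dtymk. In the purine and pyrimidine classes they ran from -0.28 to 0.02 for Ppat, -0.19 to 0.01 for Paics, -0.21 to 0.13 for Atic, -0.06 to 0.10 for Gmps, -0.04 to 0.35 for Impdh2 and -0.04 to 0.25 for Cad. In the remaining class they ran from -0.15 to 0.28 for Glud1, -0.16 to 0.02 for Got1, -0.29 to 0.03 for Got2, -0.10 to 0.01 for Odc1 and -0.16 to 0.31 for Sms. Probes near background carry less certain values, and 35 of the 36 members were well above it on all 7 arrays. The exception, Shmt1, was well above it on 6, since its spot on WT 3 was flagged and left out.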
